A study of Mus musculus with 12 samples.

Results

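The mRNAs of 10 enzymes of glycolysis (Aldoa, Tpi1, Gapdh, Pgk1, Pgam1, Eno1, Eno2, Pkm, Ldha and Ldhb) were followed in ribosome-bound and total RNA of mouse dorsal root ganglion (DRG) material. They were chosen by symbol. All 10 were found among the 14675 Ensembl gene IDs of the deposited count table, each with 1 ID, and all 10 passed the filter on low counts in the input columns alone as well as over all columns. The table has 12 columns in 4 groups of 3: IP with e5UTR, IP with shGpr151, input with e5UTR and input with shGpr151. IP is RNA pulled down with an anti-HA antibody and input is the lysate's total RNA.

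All mice were adult and of genotype RPL22HA+/+;Advillin-Cre+, so that the Advillin promoter switches on an HA-tagged ribosomal protein RPL22 in sensory neurons and the pull-down takes their ribosomes. All groups had received AAV-shGpr151, a virus with a short hairpin RNA against Gpr151. The groups called e5UTR had received AAV-e5'UTR in addition, whose insert the labels do not define, and the groups called shGpr151 had not. No group without the hairpin was analysed here. The design text describes cultured neurons taken after a preconditioning injury of the sciatic nerve and the protocol describes fresh ganglia, and which of these was sequenced remained unclear.

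The column totals ran from 1514948 to 1517685 estimated counts in IP e5UTR, from 1381220 to 1382261 in IP shGpr151, from 975403 to 977366 in input e5UTR and from 984118 to 985277 in input shGpr151. The 3 columns of a group differed by little more than counting noise: the median gene's chi-square between them was 1.12, 1.09, 1.08 and 1.12 times the counting value in that order of groups, so each group was counted as 1 sample, called a pool. IP against input therefore compares 2 pools with 2 pools, which differ in treatment, and each e5UTR comparison sets 1 pool against 1 pool. Some genes did vary more between columns: the chi-square test gave an unadjusted p under 0.05 for 7.2% to 7.7% of genes by group. Of 40 such tests of an enzyme in a group, 5 had a p under 0.05. These were Gapdh (0.0022), Eno1 (0.0091), Pgk1 (0.024) and Ldha (0.041) in IP e5UTR and Pkm (0.033) in input e5UTR. For these, intervals of counting error are too narrow. The hairpin's target Gpr151 was present in every column, with 34 to 50 counts in IP e5UTR, 34 to 37 in IP shGpr151, 8 to 12 in input e5UTR and 7 to 16 in input shGpr151. IP exceeded input 3.79-fold for Avil, the gene behind the Cre promoter (log2 1.92 ± 0.17 SE, adjusted p = 2.6e-07). Scaled in the same way, Gpr151 was 1.31-fold higher in IP, which did not pass the test (adjusted p = 0.14). Rpl22, the gene of the tagged protein, was lower in IP, at 0.562 of its input level (log2 −0.83 ± 0.12, adjusted p = 2.2e-05). By library total its ratio of IP to input was 1.12 with e5UTR and 1.03 with shGpr151. On that scale the median log2 difference of all genes tested was 1.00, so Rpl22 stayed below the median gene. These p-values are from edgeR's quasi-likelihood test on the 4 pools.

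Glycolysis splits glucose into pyruvate in the cytosol and yields ATP without oxygen. Aldolase (Aldoa) cleaves the phosphorylated hexose, triose phosphate isomerase (Tpi1) interconverts the products, and GAPDH, phosphoglycerate kinase (Pgk1), phosphoglycerate mutase (Pgam1), enolase (Eno1, Eno2) and pyruvate kinase (Pkm) carry them on to pyruvate. Lactate dehydrogenase (Ldha, Ldhb) then interconverts pyruvate and lactate. Enolase and lactate dehydrogenase come as isozymes: Eno2 encodes the neuronal gamma enolase and Eno1 the widely expressed alpha enolase, while Ldha and Ldhb encode the subunits that prevail in glycolytic and in oxidative tissues.

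Many glycolytic genes are known targets of the transcription factor HIF-1, whose binding core can read ACGTG. The stretch of 250 bases before each annotated start was searched for ACGTG on both strands (CACGT on the printed strand), in RefSeq promoters of build GRCm38.p6, which is not the build of the count table. All 10 genes were matched by symbol, with 16 promoters, of which 6 (37.5%), in 5 genes, held the letters, against 5444 of all 32851 promoters in the table (16.6%). By gene this was 5 of 10, against 4998 of 27025 genes. The promoters counted for Aldoa share the same site, 126 and 202 bases before different starts. A match is a run of letters, not a binding site, and binding was not measured. The sequences are the first window of 25 bases by coordinate in each of these 5 genes, shown because they carry the feature that part of the set shares, with the match in capitals, read 5′ to 3′ on the gene's strand.
Aldoa, chr7:126799366-126799390, minus strand: tggctcgagtCACGTcctagcgggg
Pgk1, chrX:106186940-106186964, plus strand: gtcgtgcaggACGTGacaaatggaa
Pgam1, chr19:41911747-41911771, plus strand: ctccttgcttACGTGcgctccgtga
Pkm, chr9:59657142-59657166, plus strand: ccgatccggtCACGTccgcgccgca
Ldha, chr7:46845649-46845673, plus strand: tgtcgcagcaCACGTggagccactc
Tpi1, Gapdh, Eno1, Eno2 and Ldhb had no match to ACGTG in these stretches of 250 bases, and other forms of the core were not searched. The Ldha window holds CACGTG, in which the matches of both strands overlap. Both the highest of the 10 in IP over input, Eno2, and the lowest, Ldhb, were among the genes without a match.

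Setting IP against input addressed which mRNAs the tagged ribosomes of sensory neurons carried. The glycolytic mRNAs were spread from the neuronal enolase Eno2, 4.54-fold higher in IP, to the lactate dehydrogenase subunit Ldhb at 0.594 of its input level. Of the 10 enzymes, 7 were higher in IP, 1 was lower and 2 did not pass the test, where 69.7% of all 8085 genes tested were called, 33.5% higher and 36.2% lower. The test was edgeR's quasi-likelihood test on the 4 pools with Benjamini-Hochberg adjustment. At least 2-fold higher were 5 of the 10, against 23.2% of all genes tested. The median log2 difference was 1.19 for the 10 enzymes and 0.06 for all genes tested. All 6 IP columns lay above all 6 input columns for 8 of the 10, against 24.1% of all genes tested, and below them for 1, against 31% of all genes tested. Levels are CPM, counts scaled to a common depth by the library size and TMM, a method that sets the typical gene equal between libraries. Scaled by library total instead, the median of all genes moved to 1.00 and the calls to 5046 higher and 1893 lower (2706 and 2928 with TMM), so small differences have no fixed sign and are best read against that median.

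**Figure D1:**
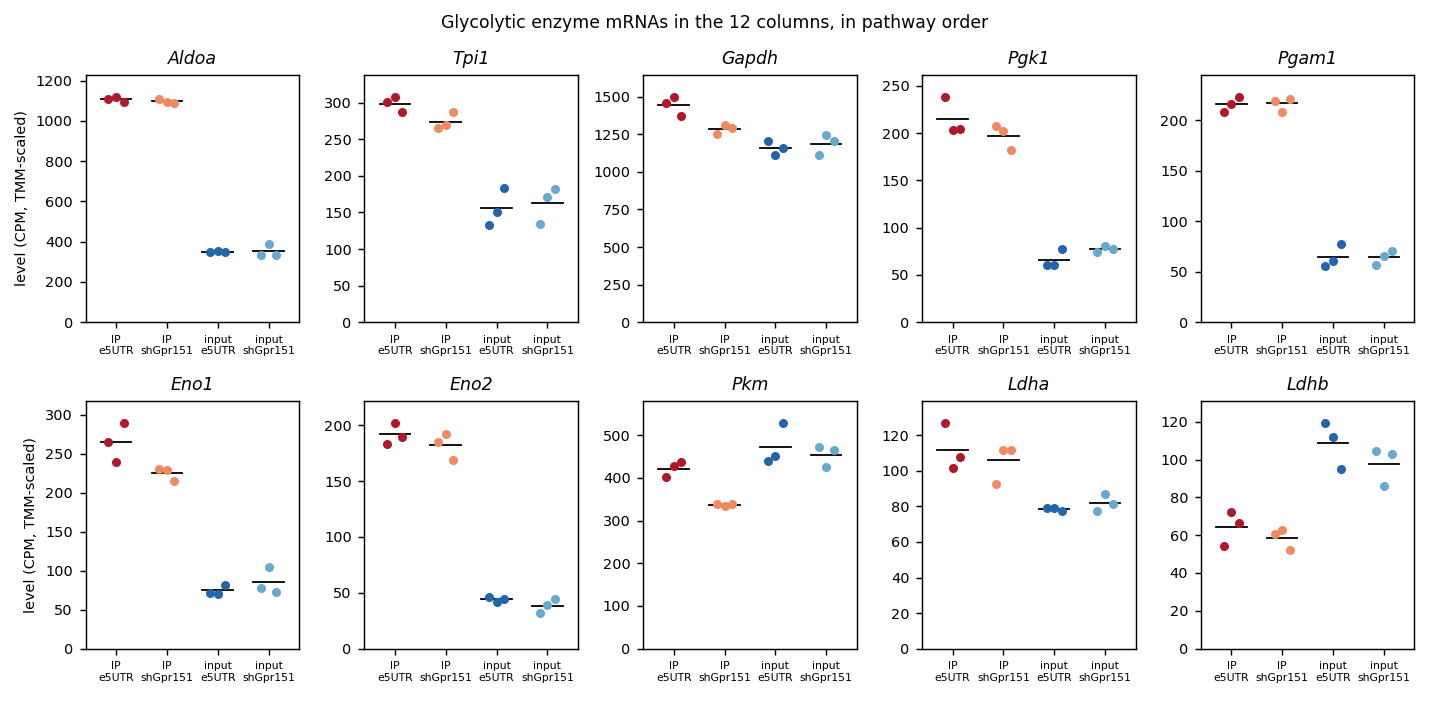
Level of each of the 10 glycolytic mRNAs (CPM of the TMM-scaled library size, axes from 0) in the 12 columns; points are columns, black lines the pools of 3 columns. Both IP groups stand far above both input groups for Aldoa, Pgk1, Pgam1, Eno1 and Eno2 and below them for Ldhb.

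Aldoa (ENSMUSG00000030695), which with Gapdh had the highest counts of the set in both IP pools, had 1110, 1119 and 1096 CPM in IP e5UTR and 1107, 1093 and 1090 CPM in IP shGpr151, against 348, 355 and 351 CPM in input e5UTR and 335, 388 and 335 CPM in input shGpr151. Every IP column lay far above every input column. The difference was 3.13-fold (log2 1.65 ± 0.11 SE, adjusted p = 9.2e-09), and it was nearly the same in either treatment, 3.16-fold (95% interval 2.92 to 3.41) with e5UTR and 3.11-fold (2.88 to 3.36) with shGpr151. These intervals are exact binomial intervals on pooled counts and cover counting error only. Tpi1 (ENSMUSG00000023456), which brings both triose products of aldolase onto the same route, had 301, 308 and 287 CPM in IP e5UTR and 266, 270 and 288 CPM in IP shGpr151, against 134, 151 and 183 CPM in input e5UTR and 134, 172 and 182 CPM in input shGpr151. IP and input did not overlap. The rise in IP was smaller than that of Aldoa, 1.80-fold (log2 0.85 ± 0.12, adjusted p = 3.2e-05).

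Gapdh (ENSMUSG00000057666), the dehydrogenase that makes the first high-energy phosphate and a common reference gene, differed little between the fractions. It had 1460, 1497 and 1370 CPM in IP e5UTR and 1254, 1313 and 1295 CPM in IP shGpr151, against 1203, 1111 and 1155 CPM in input e5UTR and 1114, 1243 and 1206 CPM in input shGpr151. The lowest IP column was just above the highest input column. The log2 difference of 0.22 ± 0.11 did not pass the test (adjusted p = 0.081), although it passed with 6 of 14 alternative settings, among them library total scaling (log2 1.16, adjusted p = 3.0e-07). The next enzymes of the route were high in IP again. Pgk1 (ENSMUSG00000062070), which makes the first ATP, had 238, 203 and 204 CPM in IP e5UTR and 208, 202 and 182 CPM in IP shGpr151, against 60.3, 60.4 and 77.7 CPM in input e5UTR and 74.3, 80.1 and 77.3 CPM in input shGpr151, a 2.88-fold difference (log2 1.52 ± 0.14, adjusted p = 2.9e-07). Pgam1 (ENSMUSG00000011752) had 208, 216 and 223 CPM in IP e5UTR and 220, 209 and 221 CPM in IP shGpr151, against 56.0, 60.4 and 77.7 CPM in input e5UTR and 57.2, 65.8 and 70.2 CPM in input shGpr151. Its IP columns all lay well above its input columns, and it was 3.35-fold higher in IP (log2 1.74 ± 0.13, adjusted p = 4.0e-08).

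Both enolases were high in IP. Eno2 (ENSMUSG00000004267) had 183, 202 and 190 CPM in IP e5UTR and 185, 192 and 169 CPM in IP shGpr151, against 45.9, 41.7 and 44.6 CPM in input e5UTR and 31.5, 38.6 and 44.4 CPM in input shGpr151, with a log2 difference of 2.18 ± 0.15 (adjusted p = 1.0e-08). Eno1 (ENSMUSG00000063524) had 265, 240 and 289 CPM in IP e5UTR and 230, 230 and 215 CPM in IP shGpr151, against 71.8, 70.4 and 82.0 CPM in input e5UTR and 77.2, 104 and 73.0 CPM in input shGpr151. No IP column of either gene came near an input column. Eno1 was 3.07-fold higher in IP (log2 1.62 ± 0.14, adjusted p = 1.9e-07). The 95% intervals of IP over input, 3.51 to 5.43 with e5UTR and 3.79 to 6.06 with shGpr151 for Eno2, overlapped with that of Eno1 with e5UTR (3.00 to 4.20) but not with that of Eno1 with shGpr151 (2.26 to 3.12).

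Eno1 shares sequence with its near-identical intronless copy Eno1b, which has an ID of its own in the table. Eno1b had 89, 149 and 144 counts in IP e5UTR and 124, 133 and 116 in IP shGpr151, against 8, 0 and 0 in input e5UTR and 0, 10 and 11 in input shGpr151. The columns of IP e5UTR differed beyond counting noise for Eno1b (chi-square test, unadjusted p = 0.00017), and for Eno1 itself (unadjusted p = 0.0091). The labels do not say how reads were divided between such copies, so the level of either gene is uncertain. With the counts of Eno1b added to Eno1 the enolase stayed high in IP (log2 1.83, adjusted p = 4.3e-08). The IDs without a symbol may hold further copies of these genes, which were not counted here.

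The genes of the last steps stood lower in IP over input than Aldoa, Pgk1, Pgam1 and the enolases. Pkm (ENSMUSG00000032294), the pyruvate kinase gene, had 401, 428 and 438 CPM in IP e5UTR and 339, 335 and 338 CPM in IP shGpr151, against 439, 452 and 528 CPM in input e5UTR and 472, 425 and 465 CPM in input shGpr151. The groups touched, since the highest IP column was above the lowest input column. The log2 difference of −0.29 ± 0.13 did not pass (adjusted p = 0.059), and it was 0.65 by library total (adjusted p = 0.00031), below the median of all genes on either scale. Ldha (ENSMUSG00000063229) had 127, 101 and 108 CPM in IP e5UTR and 92.9, 112 and 112 CPM in IP shGpr151, against 79.0, 79.1 and 77.7 CPM in input e5UTR and 77.2, 87.3 and 81.6 CPM in input shGpr151. The lowest IP column was close to the highest input column, and the rise of 1.36-fold (log2 0.44 ± 0.13, adjusted p = 0.0091) ended with DESeq2 (adjusted p = 0.085) and without the pool of input e5UTR (adjusted p = 0.14) or of input shGpr151 (adjusted p = 0.083).

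Ldhb (ENSMUSG00000030246) was the single member called lower in IP. It had 54.2, 72.1 and 66.4 CPM in IP e5UTR and 60.5, 62.6 and 52.0 CPM in IP shGpr151, against 119, 112 and 94.9 CPM in input e5UTR and 104, 85.8 and 103 CPM in input shGpr151. All IP columns lay below all input columns. It fell by 0.75 ± 0.14 on the log2 scale (adjusted p = 0.00023), but by library total its log2 difference was 0.19 (adjusted p = 0.20), below the median of 1.00 of all genes on that scale.

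**Figure D2:**
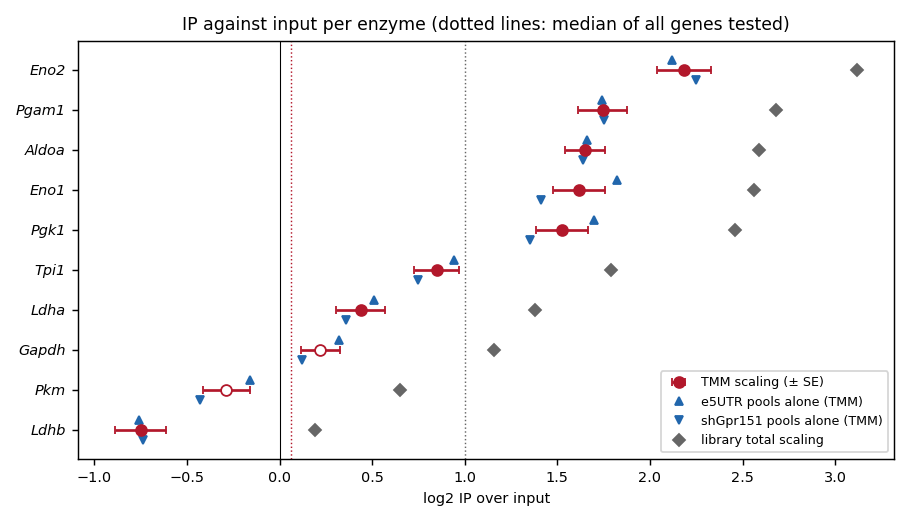
Log2 of IP over input for the 10 enzymes. Circles are the fit of the 4 pools with TMM scaling (± SE; filled where adjusted p is under 0.05), triangles the pools of either treatment alone, and diamonds the fit with library total scaling; dotted lines mark the median of all genes tested on the TMM scale (0.06) and on the library total scale (1.00). The order of the enzymes is the same on both scales, with Eno2 at the top and Ldhb at the bottom.

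In the order of these log2 differences, Eno2 stood first (2.18), followed by Pgam1 (1.74), Aldoa (1.65), Eno1 (1.62), Pgk1 (1.52), Tpi1 (0.85), Ldha (0.44), Gapdh (0.22), Pkm (−0.29) and Ldhb (−0.75). The ranges of ± SE of Pgam1, Aldoa, Eno1 and Pgk1 overlapped. The differences between genes were not tested. As a part of the library total, without TMM, the 10 mRNAs took 0.586% of counts (95% interval 0.579 to 0.593) in IP e5UTR. In IP shGpr151 they took 0.543% (0.536 to 0.550), against 0.183% (0.179 to 0.188) in input e5UTR and 0.185% (0.180 to 0.190) in input shGpr151. On that scale the median log2 difference of all genes tested was 1.00, so these parts are best read against that median. Within the sum of the 10 mRNAs Aldoa held 25.6% in IP e5UTR and 27.6% in IP shGpr151, against 13.6% in input e5UTR and 13.5% in input shGpr151. Gapdh held 33.3% in IP e5UTR and 32.3% in IP shGpr151, against 44.9% in input e5UTR and 45.7% in input shGpr151.

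Isozyme shares were compared within each library, where the scaling of libraries has no part. They are shares of counts not divided by transcript length, so a share shows a difference between libraries and not which gene of a pair had more molecules. The lactate dehydrogenase mRNAs changed balance between the fractions. Ldhb made up 36.4% of Ldha plus Ldhb counts (95% exact binomial interval 33.6 to 39.4, 1084 counts) in IP e5UTR and 35.6% (32.5 to 38.8, 927 counts) in IP shGpr151, against 58.1% (53.0 to 63.0, 391 counts) in input e5UTR and 54.4% (49.2 to 59.5, 377 counts) in input shGpr151. The odds of an Ldhb count in IP were 0.414 of those in input with e5UTR (0.325 to 0.528) and 0.464 with shGpr151 (0.361 to 0.596). The column shares were 29.9%, 41.6% and 38.1% in IP e5UTR and 39.4%, 35.9% and 31.7% in IP shGpr151, all below the 60.1%, 58.6% and 55.0% of input e5UTR and the 57.5%, 49.6% and 55.8% of input shGpr151. An exact permutation test of 2 pools against 2 cannot give a p under 0.333, so no p is given for these shares.

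The enolase balance moved less. Eno2 made up 42.0% of Eno1 plus Eno2 counts (40.1 to 43.8, 2806 counts) in IP e5UTR and 44.7% (42.6 to 46.8, 2300 counts) in IP shGpr151, against 37.1% (31.1 to 43.4, 248 counts) in input e5UTR and 31.0% (25.4 to 37.0, 258 counts) in input shGpr151. The odds ratio of IP to input was 1.23 (0.931 to 1.62) with e5UTR, an interval that holds 1, and 1.80 (1.35 to 2.40) with shGpr151. With Eno1b counted as Eno1 the odds ratios were 1.04 (0.796 to 1.38) and 1.55 (1.18 to 2.07). The interval of the shift towards the neuronal isozyme thus excluded 1 in the shGpr151 pools and held 1 at this depth in the e5UTR pools. The intervals overlapped, and a difference between treatments was not tested. Eno2 column shares were 40.8%, 45.7% and 39.7% in IP e5UTR, above the 39.0%, 37.2% and 35.2% of input e5UTR. They were 44.5%, 45.5% and 44.0% in IP shGpr151, above the 28.9%, 27.0% and 37.8% of input shGpr151. With Eno1b counted, the column shares overlapped with e5UTR but not with shGpr151.

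**Figure D3:**
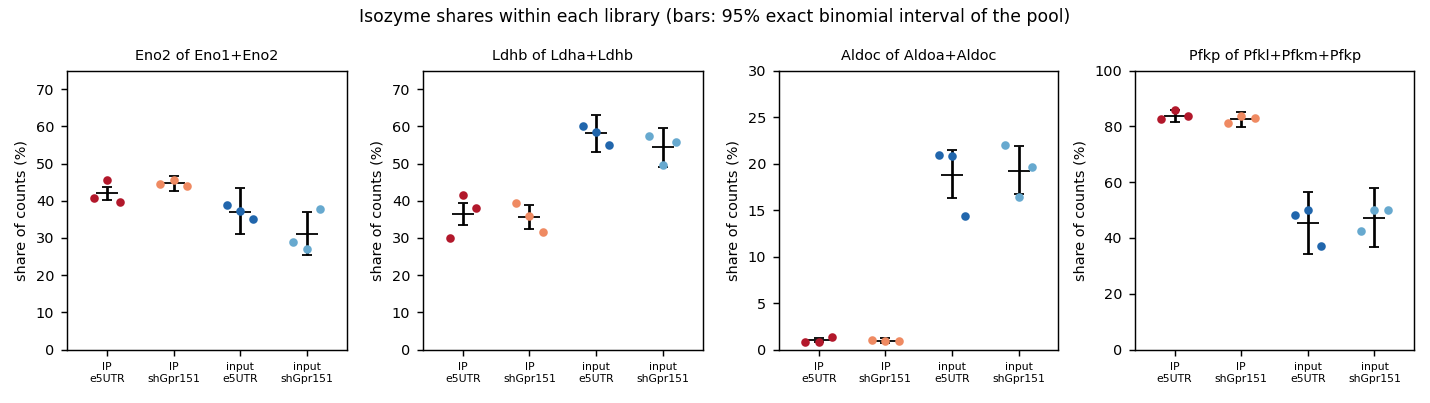
Share of 1 isozyme in the counts of its family (percent, axes from 0) in each pool, with the 95% exact binomial interval, and in each column (points). Ldhb and Aldoc take smaller shares in IP than in input and Pfkp a larger one, while the Eno2 intervals of IP e5UTR and input e5UTR overlap.

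Markers of cell types other than neurons were mostly lower in IP than in input. The summed level of 10 Schwann cell markers was 490 CPM in IP e5UTR and 520 CPM in IP shGpr151, against 1631 CPM in input e5UTR and 1627 CPM in input shGpr151, and 7 of the 9 tested were lower in IP. Satellite glia markers, 9 of 10 in the table, summed to 457 CPM in IP e5UTR and 446 CPM in IP shGpr151, against 2568 CPM in input e5UTR and 2474 CPM in input shGpr151, with 6 of 8 tested lower and 1 higher. Fibroblast markers summed to 281 CPM in IP e5UTR and 241 CPM in IP shGpr151, against 1576 CPM in input e5UTR and 1614 CPM in input shGpr151, with 6 of 7 tested lower. Macrophage markers summed to 74.5 CPM in IP e5UTR and 66.5 CPM in IP shGpr151, against 170 CPM in input e5UTR and 175 CPM in input shGpr151, with 4 of 6 tested lower and 1 higher. Red blood cell markers summed to 3.09 CPM in IP e5UTR, with 2 of the 5 at 0, and 2.30 CPM in IP shGpr151, with 3 at 0, against 2363 CPM in input e5UTR and 2405 CPM in input shGpr151. The 10 neuronal markers summed to 9020 CPM in IP e5UTR and 8560 CPM in IP shGpr151, against 4500 CPM in input e5UTR and 4506 CPM in input shGpr151, with 6 higher and 3 lower in IP. These differences set pulled-down RNA against total RNA, so they do not measure numbers of cells or RNA per cell. The part of the other cells in the ratios of the enzymes was not tested.

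The other genes around glycolysis gave a wider view. Of 82 genes in 8 lists, 45 were tested. Of these, 20 had passed the filter on low counts only through the IP columns, a choice that favours genes higher in IP, and they are counted apart. Of the 25 that passed in the input columns too, 14 were higher and 6 lower in IP, with a median log2 of 0.78, against 0.06 for all genes tested. Of the 20 that passed through IP only, 14 were higher, 0 were lower and 6 were not called. Of all genes tested, 33.5% were higher and 36.2% lower. That set was not split by the filter and includes genes that passed through IP only, so it is not filtered like the 25. Among the other glycolytic isozymes, 5 passed in input, with 3 higher and 1 lower. Hk1, the hexokinase that starts the pathway, was 5.13-fold higher (109 CPM in IP e5UTR and 107 CPM in IP shGpr151, against 22.0 CPM in input e5UTR and 20.0 CPM in input shGpr151, adjusted p = 1.2e-08). Pfkp, the platelet-type phosphofructokinase also found in brain, was 6.75-fold higher (145 and 120 CPM in IP e5UTR and shGpr151, against 18.2 and 21.0 CPM in input e5UTR and shGpr151, adjusted p = 6.2e-09). The isomerase gene Gpi1, named after its values were seen, was 3.88-fold higher. The liver-type phosphofructokinase gene Pfkl, also named after its values were seen, was 2.49-fold higher but passed the filter through IP only, and Pfkm, the muscle type, did not pass (75 to 98 pooled counts in IP, 33 to 42 in input).

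Aldoc, the aldolase of astrocytes and other glia and itself on the satellite glia list, went against Aldoa. It had 11.2 CPM in IP e5UTR and 10.4 CPM in IP shGpr151, against 81.4 CPM in input e5UTR and 83.9 CPM in input shGpr151 (log2 −2.93 ± 0.17, adjusted p = 2.4e-09). It made up 1.00% of Aldoa plus Aldoc counts (0.781 to 1.27) in IP e5UTR and 0.943% (0.718 to 1.21) in IP shGpr151, against 18.8% (16.3 to 21.5) in input e5UTR and 19.2% (16.7 to 21.9) in input shGpr151. Among phosphofructokinases, Pfkp took 83.9% (81.5 to 86.0) in IP e5UTR and 82.6% (79.9 to 85.2) in IP shGpr151, against 45.2% (34.3 to 56.5) in input e5UTR and 47.3% (36.9 to 57.9) in input shGpr151.

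Neighbouring routes differed among themselves, and their counts stand beside 33.5% of all genes tested higher in IP and 36.2% lower. All 4 genes of the pentose phosphate pathway that passed the filter in input were higher in IP, as was G6pdx, which passed through IP only, and the 4 were led by the transketolase gene Tkt at 4.31-fold (log2 2.11 ± 0.15). All 6 regulators tested had passed through IP only, and 5 of them were higher, among them Pfkfb3, which makes an activator of phosphofructokinase (8.40-fold, 203 and 179 pooled counts in IP e5UTR and shGpr151, against 8 in each input pool), Hif1a, the oxygen-regulated subunit of HIF-1 (4.08-fold), and Tigar, a fructose bisphosphatase (3.97-fold). Of the transporters, 2 of the 3 that passed in input were higher, as was Slc16a1, which passed through IP only, while Slc2a3, the neuronal glucose transporter GLUT3, was lower (log2 −2.38 ± 0.13), with 35.3 and 36.6 CPM in IP e5UTR and shGpr151, against 194 and 181 CPM in input e5UTR and shGpr151. Of the 5 pyruvate entry genes that passed in input, 1 was higher and 2 were lower, among them Dld, a subunit of pyruvate dehydrogenase (log2 −2.56 ± 0.13), and 2 of the 4 that passed through IP only were higher. Of the 6 shuttle genes that passed in input, 4 were higher and 1 was lower, with the mitochondrial aspartate aminotransferase gene Got2 at 6.33-fold. Of the glycogen and galactose genes, 3 of the 5 that passed through IP only were higher, and of the 2 that passed in input 1 was lower, the glycogen synthase gene Gys1 (log2 −3.23 ± 0.14).

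**Figure D4:**
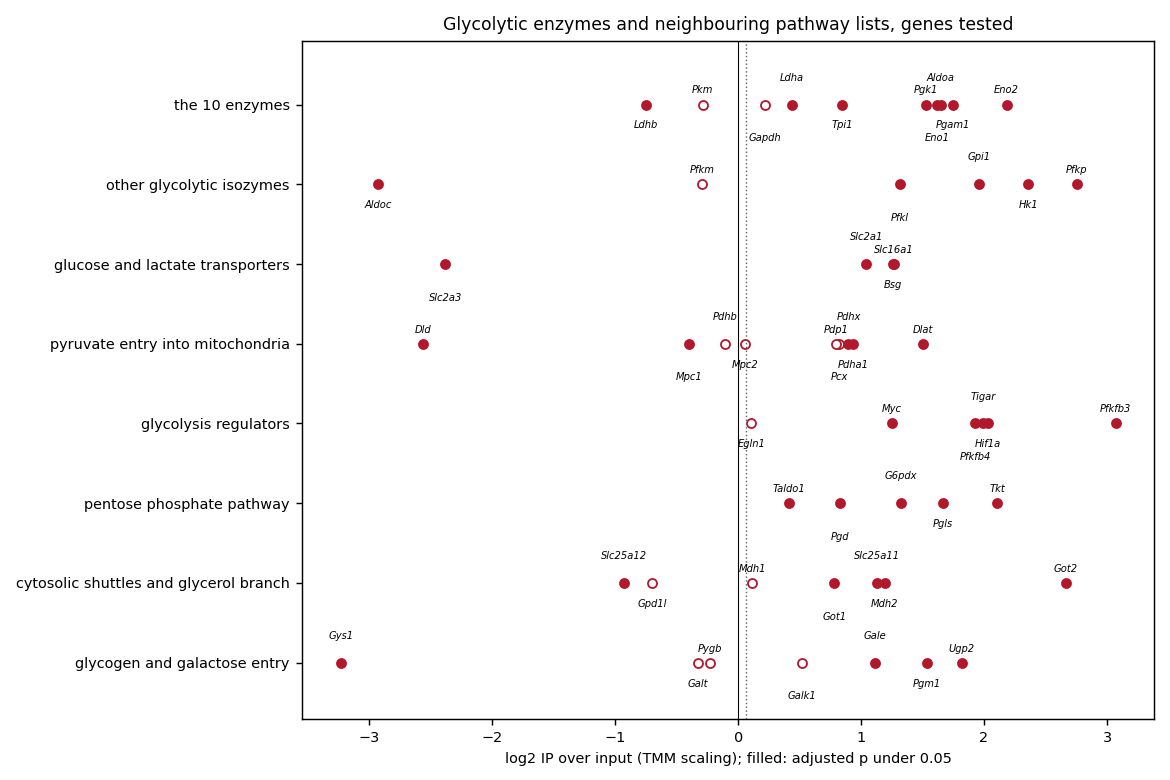
Log2 of IP over input (TMM scaling) for the 10 enzymes and for the tested genes of 7 lists around them; filled circles have an adjusted p under 0.05 and the dotted line is the median of all genes tested (0.06). Aldoc, Slc2a3, Dld and Gys1 lie far to the left of 0, and 20 of the 45 genes of all lists had passed the filter through IP only.

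A further comparison set the groups given AAV-e5'UTR on top of the hairpin virus against those given the hairpin virus alone. It sets 1 pool against 1 pool in each fraction, so the edgeR test, here over all 12 columns, compares the reads of these pools and not the conditions, and none of its differences has a replicate check. In ribosome-bound RNA 3 of the 10 enzymes, Pkm, Gapdh and Eno1, were higher with e5UTR and 0 were lower, where 10.9% of all genes tested were called, 4.69% higher and 6.25% lower. The balance over all genes moved with the scaling, with 379 genes higher and 505 lower by TMM and 184 higher and 713 lower with DESeq2 size factors. The median log2 difference was 0.13 for the 10 enzymes and 0.00 for all genes tested. Pkm had the largest difference of the set, with 822, 877 and 897 counts in IP e5UTR and 639, 631 and 637 in IP shGpr151. Scaled, these were 1.25-fold apart (95% interval 1.18 to 1.33, log2 0.33 ± 0.05, adjusted p = 3.0e-05), and the 3 columns of e5UTR all lay above those of shGpr151. This was the single call among the 10 that held under all 19 alternatives, with log2 differences from 0.21 to 0.33.

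The calls of Gapdh and Eno1 were less firm. Gapdh had 2992, 3071 and 2804 counts in IP e5UTR and 2362, 2474 and 2440 in IP shGpr151, a ratio of 1.12 (1.09 to 1.16, log2 0.17 ± 0.03, adjusted p = 0.00065). Eno1 had 544, 492 and 592 counts in IP e5UTR and 434, 433 and 405 in IP shGpr151, a ratio of 1.18 (1.09 to 1.27, log2 0.24 ± 0.07, adjusted p = 0.021). In both, all scaled columns of e5UTR lay above all of shGpr151, as they did for 3 of the 10 enzymes in all and for 13.6% of all genes tested. The columns of IP e5UTR differed beyond counting noise for Gapdh (chi-square test, unadjusted p = 0.0022) as for Eno1. With DESeq2 size factors the adjusted p was 0.076 for Gapdh and 0.13 for Eno1. The calls of both ended without IP e5UTR column 1 or 2 or without any column of IP shGpr151, that of Eno1 also without IP e5UTR column 3, and the value of Eno1 fell to a log2 of 0.17 (adjusted p = 0.089) when Eno1b was added. Without a column of either IP group the median log2 of all genes in this comparison was −0.09 or −0.10.

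The other 7 enzymes did not pass the test in IP. Their ratios of e5UTR to shGpr151 ran from 0.997 for Pgam1 (0.922 to 1.08) and 1.01 for Aldoa (0.976 to 1.05) to 1.10 for Ldhb (0.948 to 1.28), and the intervals of Pgk1 (1.01 to 1.18) and Tpi1 (1.02 to 1.16) lay above 1 by a small margin. In input 0 of the 10 enzymes passed, where 0.198% of all genes tested were called (0.0124% higher), and 394 genes had an unadjusted p under 0.05. DESeq2 and limma-voom also called 0 of the 10. In input 0 of the 10 had all e5UTR columns above all shGpr151 columns, against 6.86% of all genes tested. The input ratios ran from 0.856 for Pgk1 (0.677 to 1.08) to 1.16 for Eno2 (0.847 to 1.58), and the interval of every enzyme held 1. For Pkm the input ratio was 1.04 (0.952 to 1.14) and for Gapdh 0.974 (0.921 to 1.03). These intervals rest on fewer counts and are wider than those of IP. For the Ldhb and Eno2 shares, the intervals of the odds ratio between the treatments held or reached 1. They were wide in input, where a larger difference is not excluded. The odds of an Ldhb count with e5UTR were 1.04 times those with shGpr151 in IP (0.860 to 1.25) and 1.16 times in input (0.864 to 1.56). Those of an Eno2 count were 0.895 times in IP (0.800 to 1.00) and 1.31 times in input (0.892 to 1.93).

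**Figure D5:**
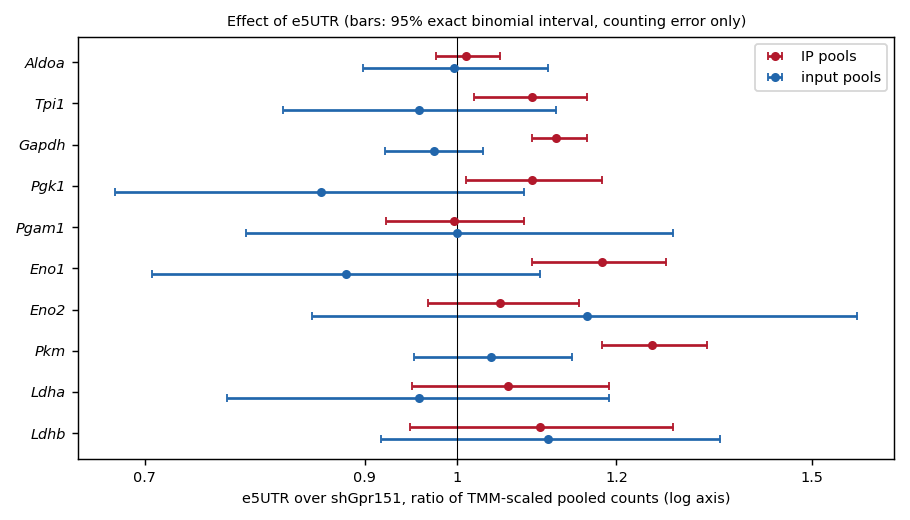
Ratio of e5UTR to shGpr151 (TMM-scaled pooled counts, log axis) for each enzyme in the IP pools (red) and the input pools (blue), with 95% exact binomial intervals that cover counting error only. Pkm at 1.25 and Eno1 at 1.18 stand highest in IP, while every input interval holds 1.

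Whether the e5UTR difference itself differed between the fractions was tested as an interaction in the same model of 12 columns, which shares its pools with both comparisons above. Of the 10 enzymes 1, Gapdh, passed, where 5.11% of all genes tested were called, 1.57% higher and 3.54% lower. Over all genes 127 were higher and 286 lower, against 56 higher and 364 lower with DESeq2 size factors. The interaction of Gapdh was log2 0.21 ± 0.06 (adjusted p = 0.033). It passed in 5 of 19 alternatives, and the call ended without any column of either IP group and without column 2 or 3 of either input group, with the lowest value without column 2 of IP e5UTR (log2 0.09, adjusted p = 0.57). The interaction did not pass for Pkm (log2 0.27 ± 0.08, adjusted p = 0.067) or Eno1 (log2 0.42 ± 0.18, adjusted p = 0.23), so their difference in IP is not shown to be particular to the ribosome-bound fraction. For Pkm it passed in 2 of 19 alternatives, without column 3 of input e5UTR (log2 0.35, adjusted p = 0.011) and without column 2 of input shGpr151 (log2 0.32, adjusted p = 0.039).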

How the data were processed

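Per the labels, sequencing used a cDNA-PCR barcoding kit of Oxford Nanopore. The deposited values are the authors' estimated counts, 1 whole number per gene and column. The submitters' processing notes name minimap2, Salmon, GRCm39 and mm39, without versions or roles. Counting settings, strand use, annotation release and the treatment of reads shared by several genes are not stated there. Symbols were found for 13191 of 14675 gene IDs (89.9%); the other 1484 IDs held 11.0% of counts.

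Genes passing edgeR's filterByExpr over the 12 columns (minimum count 10, minimum total 15) were kept, 8085 in all. IP against input was tested on the 4 pools (sums of 3 columns) with edgeR 4.0.16 in R 4.3.3 (quasi-likelihood, TMM factors 0.720 to 1.392, Benjamini-Hochberg threshold 0.05, SE as the log2 difference over the root of F). The biological coefficient of variation was 10.31% over pools and 2.58% over columns. This test borrows the spread of all genes, since 2 pools a fraction give little of their own, and treatment was left in the spread. The e5UTR differences and the interaction were tested on the 12 columns in a model of the 4 group means. The p-values therefore cover only how these libraries vary, and nothing in the labels says that columns come from separate animals. PCR reads without molecular identifiers are not independent molecules, so intervals (95%, exact binomial, Clopper-Pearson) cover counting error only. The scripts were tested on simulated data.

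The enzymes, the gene lists and the rule for named genes (all 10 enzymes and up to 12 called genes of the 8 wider lists, the same enzymatic step first and then the largest log2 difference) were chosen with earlier results of these data known. In IP against input the called genes Gpi1, Pfkl, G6pdx and Slc16a1 were named beyond this rule. Alternatives were library total scaling, DESeq2 size factors, DESeq2 1.42.0, limma-voom (limma 3.58.1), other filters, a treatment block, fits on columns, a replicate block, each pool or column left out, and retrogene counts added.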

Additional observations from a re-analysis of the deposited data

Results flagged for a closer look

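Gapdh was singled out because its e5UTR difference was not the same in the 2 fractions, with an interaction of log2 0.21 ± 0.06 (adjusted p = 0.033, edgeR's quasi-likelihood test on the 12 columns). The ratio of e5UTR to shGpr151 was 1.12 (95% interval 1.09 to 1.16) in IP and 0.974 (0.921 to 1.03) in input. It passed in 5 of 19 alternatives, where its log2 values ran from 0.09 to 0.25 and its adjusted p from 0.0083 to 0.57. The test compares the reads of 4 pools, and the columns of IP e5UTR differed beyond counting noise for this gene (chi-square test, unadjusted p = 0.0022).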

How the results depend on the processing

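In IP against input, Aldoa, Tpi1, Pgk1, Pgam1, Eno1 and Eno2 kept their direction and call under all 14 alternatives tested. Library total scaling gave 5046 genes higher and 1893 lower and 0 of the 10 enzymes lower, with Pkm at log2 0.65 and Ldhb at 0.19, against 2706 higher and 2928 lower with TMM. The enzymes called lower were 2 (Pkm beside Ldhb) with DESeq2 size factors, with limma-voom, on the 12 columns and on the 12 columns with a replicate block, and 1 to 2 with a pool left out, where the lone pool of a fraction was assumed to vary like the others. For e5UTR in IP, 379 genes and 3 enzymes were higher, but 184 and 1 with DESeq2 size factors, 88 and 1 with DESeq2, and 86 to 388 and 1 to 3 with a column left out. Genes lower with e5UTR in IP were 505, and 713 with DESeq2 size factors, 533 with DESeq2 and 500 to 647 with a column left out, so the balance of calls shifted towards lower. In input 1 gene was higher, but 0 with DESeq2 or limma-voom, 2 with no filter and 0 to 3 with a column left out. For the interaction 127 genes and 1 enzyme were higher, but 56 and 0 with DESeq2 size factors, 38 and 0 with DESeq2, 0 enzymes by library total or limma-voom, and 35 to 117 and 0 to 1 with a column left out, while genes lower were 286, and 364 with DESeq2 size factors, 352 with DESeq2 and 250 to 380 with a column left out. The cause was not tested. With Eno1b added to Eno1, an alternative planned for IP against input and the shares and added for e5UTR after seeing the data, Eno2 took 37.0% in IP e5UTR and 38.5% in IP shGpr151. Same-numbered columns did not deviate together (correlations −0.20 to 0.22 against −0.22 to 0.26 for other numbers). The columns of a group differed by little more than counting noise, so this cannot tell whether equal numbers are pairs. With the replicate block 345 genes and 3 enzymes were higher with e5UTR in IP, and no e5UTR or interaction call among the enzymes changed. Depth limits the input pools most, where Eno2 had 92 and 80 pooled counts.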

Other observations

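Outside the 10 enzymes, a few genes of the wider lists differed with e5UTR in IP by edgeR's test on the 12 columns, 3 higher and 3 lower of 45 tested, where 4.69% of all genes tested were higher and 6.25% lower. Higher were Pfkp (log2 0.27 ± 0.09, adjusted p = 0.039), the cytosolic aspartate aminotransferase gene Got1 (0.47 ± 0.14, adjusted p = 0.028) and Mpc1, a subunit of the mitochondrial pyruvate carrier (0.22 ± 0.06, adjusted p = 0.026). Lower were the lactonase gene Pgls (−0.56 ± 0.14, adjusted p = 0.0084) and Tkt (−0.24 ± 0.08, adjusted p = 0.045), both of the pentose phosphate pathway, and Bsg, a chaperone of lactate transporters (−0.25 ± 0.05, adjusted p = 0.0019). All 6 called genes are named. In input 0 of the 45 passed, and the interaction passed for 1, Pgls (log2 −1.38, adjusted p = 0.049). These tests compare the reads of 1 pool with 1 pool, and the genes were not rerun under the alternatives.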
